A study of Homo sapiens and Mus musculus with 55 samples.

Results

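Ribosome biogenesis and nucleolar genes that are commonly counted among MYC targets were followed through all 55 RNA-seq libraries. The set held 42 genes, taken by symbol from the deposited tables (title-case orthologs in the mouse tables), of 53252 gene names over the 10 tables. The rule for the set is a list of symbols and uses no measured value, but the list was chosen with earlier results of these data known. All 42 were listed in 9 tables and 41 in the Py230 table, where Wdr74 has no row. At a table mean of at least 10 normalized counts, 42 were tested in every human table and 41 in both mouse tables, since Wdr74 was near 0 in 4T1 cells. The genes were divided by role into 4 of RNA polymerase I transcription, 7 of small nucleolar ribonucleoprotein (snoRNP) core and assembly, 13 of small subunit processing, 12 of large subunit processing and 6 multifunctional nucleolar proteins. For each comparison, the 6 genes of the commonest direction given with full values were picked among called genes whose groups did not overlap. A lack of overlap in these 6 therefore follows from the choice.

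The human triple-negative breast cancer lines were MDA-MB-436 and SUM159PT, and the mouse mammary tumour lines were Py230 and 4T1. In both human lines, taxane-resistant derivatives (Tax-R) were compared with their parental cells (Par), and Tax-R cells given MYC siRNA-1 or MYC siRNA-2 (labelled siMYC1 and siMYC2) with Tax-R cells given control siRNA (siC), so that all siRNA libraries of the human lines came from resistant cells. Cells that carried a STING sgRNA (C1 or C2 in the labels) were compared with the parental mock cells of the CRISPR experiment, and STING-sgRNA cells given a STING open reading frame (ORF) with STING-sgRNA cells given a GFP ORF. Each human group had 2 libraries. The 4T1 cells carried siMYC1, siMYC2 or siC with 3 libraries each. Py230 cells carried an inducible shRNA to Sting1, and 3 libraries with doxycycline, Dox(+), were compared with 3 given vehicle, Dox(−). All Dox(+) libraries had both doxycycline and the induced shRNA, so an effect of doxycycline and one of the shRNA cannot be told apart. The labels give no doses or times, do not say whether C1 and C2 are guides or clones, and do not say whether libraries of a group came from separate cultures, so p-values measure only the spread between these libraries.

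Ribosomes are built in the nucleolus, where RNA polymerase I transcribes the precursor of the 18S, 5.8S and 28S ribosomal RNAs. SnoRNPs guide 2'-O-methylation and pseudouridylation of this precursor, the small subunit processome and its late factors cut out and fold the 18S RNA, and other assembly factors mature the large subunit. MYC, with its partner MAX, binds the E-box hexamer CACGTG and is known to raise transcription of many of these genes in proliferating and tumour cells. In bulk RNA, fewer cells of a type and less RNA per cell cannot be told apart.

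Recovered depth was 5663610 to 13191675 reads per library. The 2 Tax-R libraries of MDA-MB-436 differed by less than sampling noise, with a chi-square per gene of 0.855 over 20795 genes, against 1.02 to 2.73 in the other replicate pairs. Counts of that comparison are therefore also given with the pair counted as 1 sample. STING1, listed under its older symbol TMEM173, was 55.1, 41.7, 44.0 and 46.0 normalized counts in the MDA-MB-436 sgRNA libraries, against 182 and 158 in the mock libraries. In SUM159PT it was 94.9, 114, 101 and 92.7 counts with sgRNA, against 261 and 229 in mock (−1.28 ± 0.11, limma adjusted p 1.29e-12), and C2 and C1 differed by −0.11 ± 0.13 (adjusted p 0.608). The Sting1 counts were 48.3, 47.5 and 42.9 in Dox(+) Py230 cells, against 841, 768 and 886 in Dox(−) cells. MYC itself moved little in some MYC siRNA libraries, as given below beside the results. Exons of 25 of the 42 human genes overlap another annotated gene (12 on the same strand, 17 on the opposite strand), NPM1 has 45 named pseudogenes, and PPAN shares exons with the PPAN-P2RY11 readthrough transcript. Since no source used here states the strand setting of the counting, reads of such genes may include those of their neighbours.

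The hexamer that MYC and MAX bind was searched in windows of 300 bases, 250 before and 50 after the annotated start, in RefSeq sequences of GRCh38.p14. CACGTG reads the same on both strands, so 1 search covers both. Of the 42 genes, 35 had a window (NOLC1, TCOF1, NOP58, BOP1, DDX18, RRP12 and RRS1 had no entry), and 12 of the 35, or 34.3%, held the hexamer. It was found in 28 of 85 windows (32.9%) of other ribosome biogenesis genes, in 3 of 58 windows (5.17%) of cytosolic ribosomal protein genes and in 2030 of 27305 windows (7.43%) of all genes. Wholly before the start, it was found in 2 of the 35 windows (5.71%). That share was 20% for other ribosome biogenesis genes, 5.17% for ribosomal protein genes and 6.49% for all genes. The 12 were FBL, NOP2, NOP14, PES1, WDR43, RCL1, RRP9, UTP20, PNO1, MRTO4, BYSL and IMP4. All 12 held it between bases −10 and 40 from the start, a stretch chosen after the positions were seen, against 12 of 85 windows (14.1%) of other ribosome biogenesis genes and 318 of all windows (1.16%). The mean log2 fold change over the MYC siRNA comparisons had a median of −0.64 over the 12 genes with the hexamer and of −0.76 over 22 genes without it. This mean includes the mouse 4T1 cells, whereas all windows searched were human. A match is a description of the letters and says nothing of binding in these cells.
The 6 genes with the hexamer that had the largest mean decrease over the MYC siRNA comparisons are shown, from 60 bases before to 20 bases after the start, 5′ to 3′ on the strand of the gene, with CACGTG in capitals. The start is base 1.
MRTO4: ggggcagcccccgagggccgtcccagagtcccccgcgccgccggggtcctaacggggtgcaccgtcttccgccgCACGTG
FBL: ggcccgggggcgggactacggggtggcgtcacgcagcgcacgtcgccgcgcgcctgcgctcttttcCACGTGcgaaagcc
PNO1: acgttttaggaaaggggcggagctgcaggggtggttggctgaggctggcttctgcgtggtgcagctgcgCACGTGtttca
UTP20: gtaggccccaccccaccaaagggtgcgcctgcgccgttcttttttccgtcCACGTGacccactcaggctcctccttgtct
RRP9: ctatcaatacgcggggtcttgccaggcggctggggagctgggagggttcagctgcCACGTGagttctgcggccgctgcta
WDR43: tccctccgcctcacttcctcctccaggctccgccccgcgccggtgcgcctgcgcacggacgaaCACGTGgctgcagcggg
These stretches lie at chr1:19251745-19251824 on the plus strand for MRTO4, chr19:39846360-39846439 on the minus strand for FBL, chr2:68157828-68157907 on the plus strand for PNO1, chr12:101280045-101280124 on the plus strand for UTP20, chr3:51941885-51941964 on the minus strand for RRP9 and chr2:28894607-28894686 on the plus strand for WDR43.
In MRTO4, FBL, PNO1 and WDR43 the hexamer began after the start, at bases 15, 7, 10 and 4. In UTP20 and RRP9 it began before the start, at bases −10 and −5.

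The first question was how the genes respond when MYC is targeted by siRNA. In Tax-R MDA-MB-436 cells, 40 of the 42 genes were lower in the siMYC libraries than in siC (limma on log2 of the value plus 1, Benjamini-Hochberg adjusted p below 0.05 over all genes) and none was higher. Over all 15399 genes tested, 67.7% were called, 34% higher and 33.7% lower. The median log2 fold change of the 42 genes was −0.82. The corresponding median over all genes lay between −0.01 and 0.01 in each of the 10 comparisons. A decrease of at least 2-fold was called for 10 of the 42 genes, against 4.11% of all genes. In Tax-R SUM159PT cells, 38 genes were lower and 2 higher, with a median of −0.94, where 69.5% of all genes were called, 34.5% lower and 35% higher. Here 19 genes were at least 2-fold lower, against 8.5% of all genes. In 4T1 cells, 38 of 41 genes were lower and none higher, with a median of −0.33, where 46.2% of all genes were called, 24.7% higher and 21.5% lower. None of the 41 was at least 2-fold lower, against 0.54% of all genes. Below 0 lay 41 of 42 genes in MDA-MB-436, 40 of 42 in SUM159PT and 41 of 41 in 4T1. Of all genes, 50.6%, 50.4% and 50.7% lay below 0, in the same order. In all 3 lines 34 genes were lower, 6 were lower in 2 lines, and POLR1A and RCL1 were lower in 1 line. No such shares over all genes are given here.

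**Figure D1:**
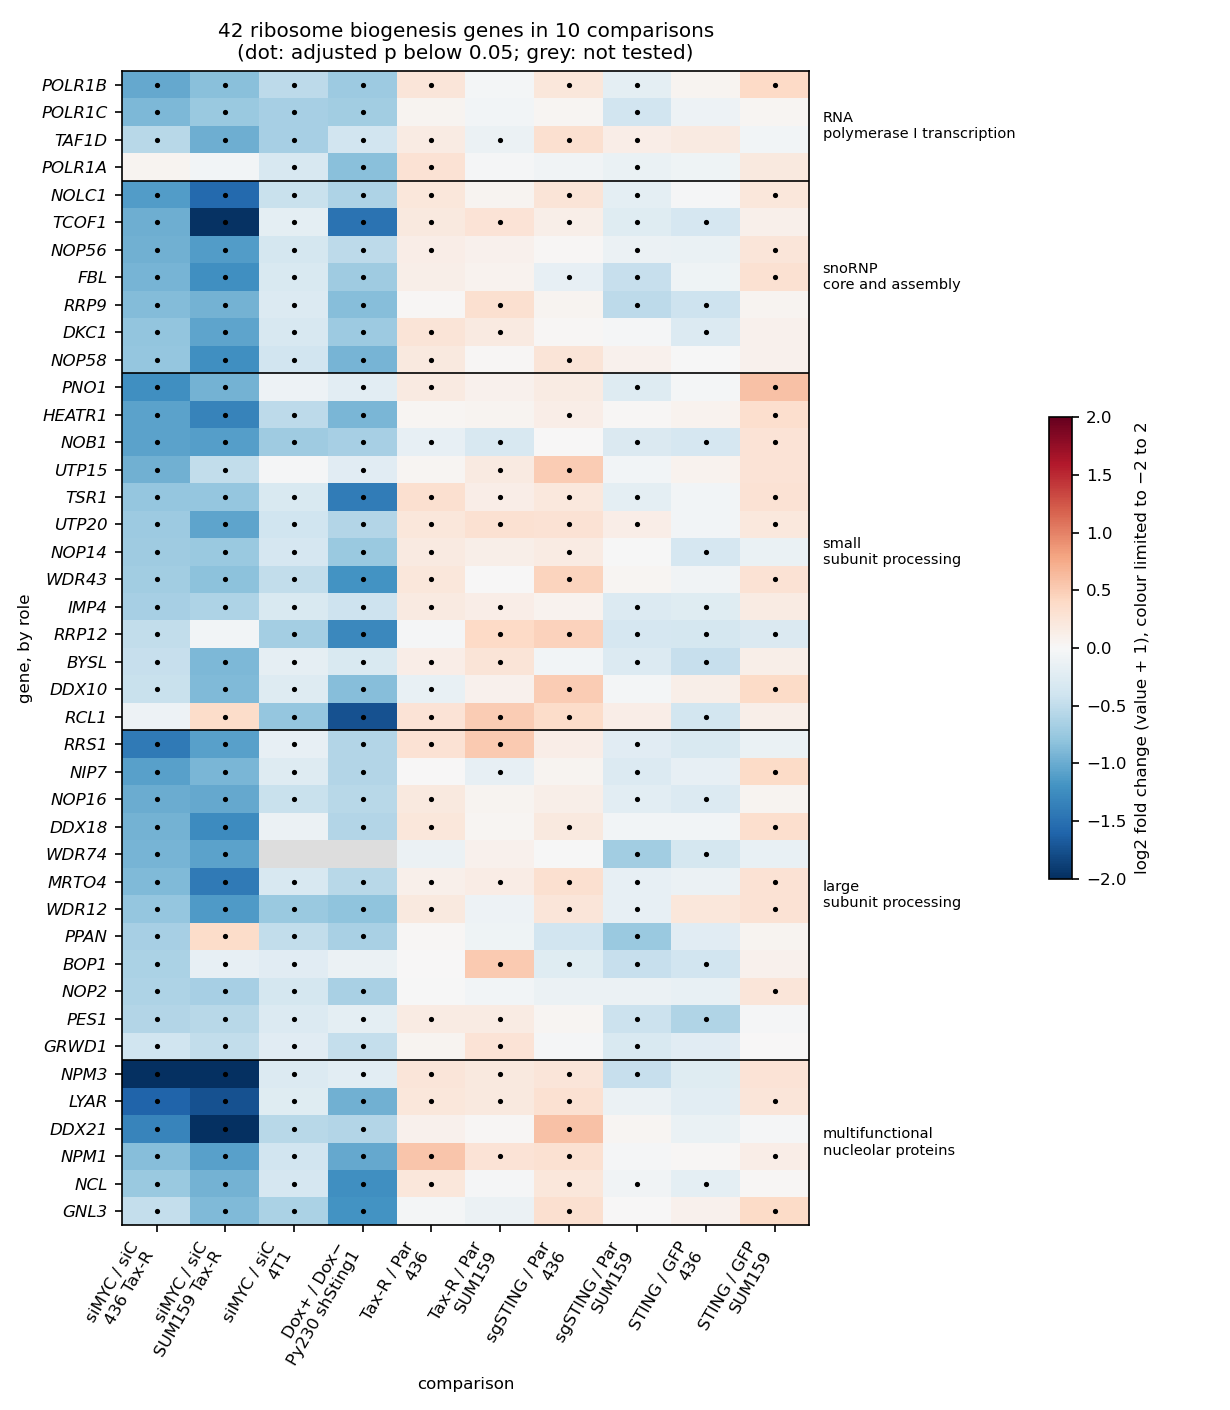
The log2 fold change of each of the 42 genes (down the page, by role) in 10 comparisons (across), where blue is lower and red higher in the group named first, a dot marks an adjusted p below 0.05 and grey a gene not tested. The 3 columns of MYC siRNA and the Py230 column are blue for nearly all genes, with medians of −0.82, −0.94, −0.33 and −0.66. The other columns are paler and hold both signs, but each leans one way. Their medians, MDA-MB-436 first, are 0.17 and 0.09 for Tax-R, 0.16 and −0.18 for STING sgRNA, and −0.15 and 0.18 for the STING ORF.

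The MYC transcript was measured as the check of the siRNA. In MDA-MB-436 cells MYC was 1897, 1930, 1924 and 1906 normalized counts in the siMYC libraries, against 2058 and 2019 in siC, a log2 fold change of −0.09 ± 0.03 (SE, adjusted p by limma 0.0144). In SUM159PT cells the siMYC libraries had 1538, 1428, 1504 and 1426 counts and the siC libraries 2727 and 2663, a change of −0.87 ± 0.04 (adjusted p 3.97e-23). In 4T1 cells they had 2220, 2407, 2232, 2339, 2366 and 2344 counts, against 2390, 2595 and 2433 in siC, and the difference of −0.09 ± 0.04 did not pass (adjusted p 0.0683). MYC was lower in both human lines, with a far smaller difference in MDA-MB-436, and the siMYC and siC libraries overlapped in 4T1. The libraries are therefore called by their labels, and MYC protein was not measured here.

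**Figure D2:**
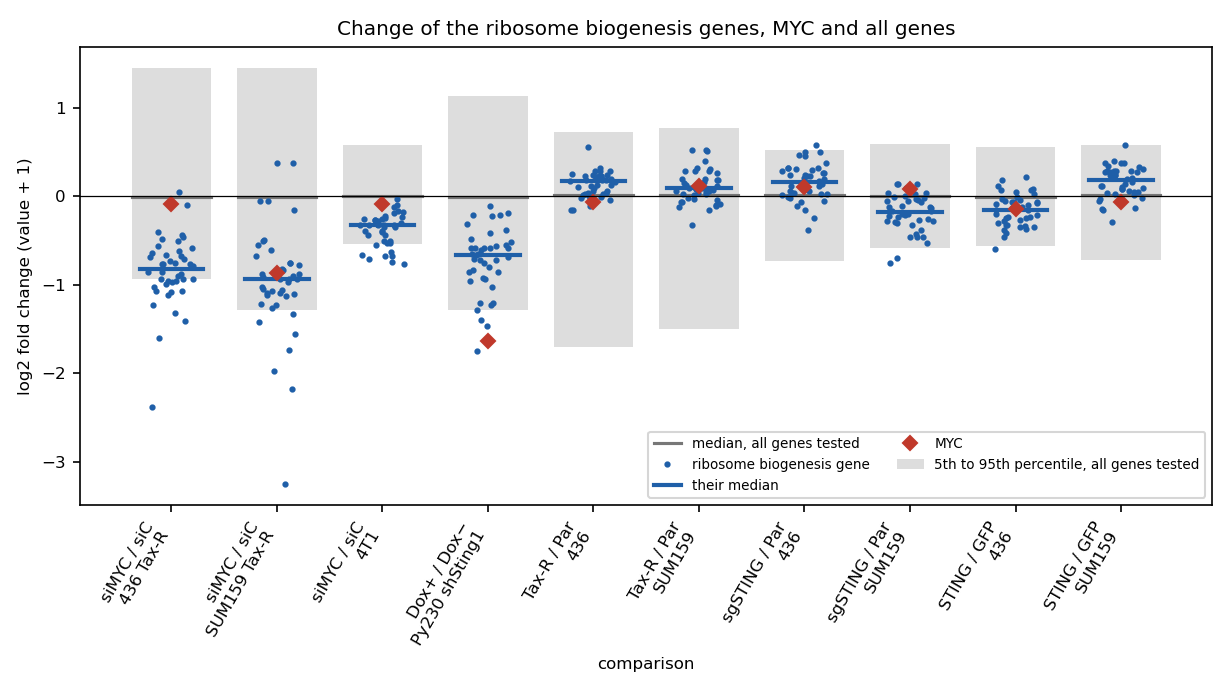
Log2 fold changes in 10 comparisons, with 1 blue point per ribosome biogenesis gene, a blue line at their median, a grey bar from the 5th to the 95th percentile of all genes tested and a red diamond for MYC. Of the blue points, all but 1 in MDA-MB-436 and all but 2 in SUM159PT lie below 0 in the first 4 comparisons (medians −0.82, −0.94, −0.33 and −0.66), whereas the MYC diamond stands at −0.09 in MDA-MB-436 and 4T1, at −0.87 in SUM159PT and at −1.64 in Py230. Of all genes, 50.4% to 50.8% lie below 0 in these 4 comparisons.

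Among the genes of RNA polymerase I transcription, 3 of 4 were lower in MDA-MB-436 and in SUM159PT and 4 of 4 in 4T1, with medians of −0.73, −0.79 and −0.6. POLR1B, the second-largest subunit of the enzyme, had 242, 283, 251 and 280.4 normalized counts in the MDA-MB-436 siMYC libraries, against 511 and 558 in siC (−1.02 ± 0.07, limma adjusted p 1.03e-12). All 4 siMYC libraries lay below both controls. POLR1A, which encodes the largest subunit, had 675, 646, 648 and 688 counts in the same siMYC libraries, against 659 and 619 in siC, and the groups overlapped (0.05 ± 0.05, adjusted p 0.352). In SUM159PT, POLR1A was 237, 249.6, 269 and 243 in siMYC libraries, against 263 and 251 in siC, again overlapping (−0.05 ± 0.08, adjusted p 0.642). TAF1D, a subunit of the promoter selectivity factor SL1, had 594, 649, 660.1 and 615 counts in SUM159PT siMYC libraries, against 1156 and 1320.3 in siC (−0.97 ± 0.06, adjusted p 3.04e-20). In 4T1 cells Taf1d had 1111, 1100.0 and 997 counts with siMYC1 and 1202, 1173 and 1089 with siMYC2, against 1657, 1756 and 1841 with siC (−0.66 ± 0.05, adjusted p 3.1e-11). Polr1c, a subunit shared by RNA polymerases I and III, had 286, 355, 322, 296, 299 and 309 counts in the 4T1 siMYC libraries, against 494, 491 and 495 in siC (−0.67 ± 0.06, adjusted p 4.63e-09). No siMYC library overlapped a control for either gene in 4T1.

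All 7 snoRNP genes were lower in each of the 3 lines, with medians of −0.93 in MDA-MB-436, −1.22 in SUM159PT and −0.32 in 4T1. NOLC1 (Nopp140), a chaperone of snoRNPs, had 1013, 1051, 1016 and 995 normalized counts in MDA-MB-436 siMYC libraries, against 2199.7 and 2202 in siC (−1.11 ± 0.04, limma adjusted p 2.37e-20). In SUM159PT it had 310.3, 308, 319.8 and 319 counts with siMYC, against 898 and 962 with siC (−1.56 ± 0.07, adjusted p 3.18e-26). The siMYC libraries were tightly grouped in both lines and far from the controls. TCOF1 (treacle), a nucleolar scaffold that joins RNA polymerase I with RNA modification, had 220.5, 235, 239.8 and 216 counts in SUM159PT siMYC libraries, against 937 and 851 in siC (−1.97 ± 0.07, adjusted p 3.32e-28). In MDA-MB-436, TCOF1 had 954, 993, 1023 and 1045 counts with siMYC, against 1979 and 1947 with siC (−0.97 ± 0.04, adjusted p 9.66e-19). The other snoRNP genes, which are the box C/D proteins FBL, NOP56 and NOP58, the pseudouridine synthase DKC1 and the U3 protein RRP9, had changes of −0.77 or lower in MDA-MB-436 and −0.94 or lower in SUM159PT.

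Of the 13 small subunit genes, 12 were lower in MDA-MB-436, 11 in SUM159PT and 11 in 4T1, with medians of −0.71, −0.82 and −0.33. PNO1, a late small subunit factor, had 157, 149, 156 and 141 normalized counts in the MDA-MB-436 siMYC libraries, against 326 and 385 in siC (−1.23 ± 0.09, limma adjusted p 1.04e-12). HEATR1 (UTP10), an early processome component, had 531, 522, 530.1 and 612 counts there with siMYC, against 1159 and 1143 with siC (−1.07 ± 0.05, adjusted p 1.9e-16). In SUM159PT the HEATR1 counts were 313, 303, 323 and 288 with siMYC, against 752 and 789 with siC (−1.33 ± 0.07, adjusted p 1.48e-22). Neither gene had overlapping groups. RCL1, an endonuclease of early precursor cleavage, stood apart from the rest of the group. It was not called in MDA-MB-436 (196, 186, 200.1 and 213 counts with siMYC, 224 and 204 with siC, −0.1 ± 0.08, adjusted p 0.28). In SUM159PT it was higher with siMYC, at 176, 182, 174 and 195 counts, against 138 and 143 with siC (0.37 ± 0.1, adjusted p 0.00109). In 4T1, Rcl1 had the largest decrease of the 41 genes, with 258, 228, 231, 216, 219.7 and 243 counts in siMYC libraries, against 371, 424 and 395 in siC (−0.77 ± 0.07, adjusted p 1.82e-09). The groups did not overlap in SUM159PT or 4T1, where the directions were opposite.

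RRP12, which is needed for maturation and export of pre-ribosomes, had 414, 418, 432 and 399.9 normalized counts in MDA-MB-436 siMYC libraries, against 599 and 581 in siC (−0.5 ± 0.06, limma adjusted p 1.2e-08). In SUM159PT its groups overlapped, at 177, 211, 170.1 and 204 counts with siMYC and 209 and 184 with siC (−0.05 ± 0.1, adjusted p 0.686). In 4T1, Rrp12 had 210.2, 189, 141, 167, 179 and 203 counts with siMYC, against 309, 299 and 262 with siC (−0.68 ± 0.1, adjusted p 3.09e-06). It therefore passed in 2 of the 3 lines. Nob1, the nuclease that makes the final cut of 18S RNA, had 413, 472, 461, 431, 453 and 472 counts in 4T1 siMYC libraries, against 769, 769 and 678 in siC (−0.71 ± 0.06, adjusted p 2.71e-10), with no overlap. Utp15 and Pno1 were not called in 4T1, at −0.03 and −0.1.

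Large subunit genes were lower in 12 of 12 cases in MDA-MB-436, 11 of 12 in SUM159PT and 10 of 11 in 4T1, with medians of −0.82, −0.97 and −0.27. RRS1, which helps load the 5S RNA particle, had 122, 115, 116 and 91 normalized counts in MDA-MB-436 siMYC libraries, against 306 and 283 in siC (−1.41 ± 0.1, limma adjusted p 1.23e-12). MRTO4, a stand-in for the ribosomal stalk protein during assembly, had 114, 94.7, 130.2 and 126 counts in SUM159PT siMYC libraries, against 312 and 310.4 in siC (−1.42 ± 0.1, adjusted p 3.49e-17). In 4T1 cells Wdr12, a member of the Pes1-Bop1-Wdr12 complex, had 297, 275, 279.5, 274, 297 and 267 counts with siMYC, against 426, 527 and 463 with siC (−0.74 ± 0.07, adjusted p 2.22e-09). All 3 of these had siMYC libraries wholly below the controls. PPAN was the exception, with 141, 156, 167 and 148 counts in SUM159PT siMYC libraries, against 128 and 109 in siC (0.37 ± 0.11, adjusted p 0.00279). DESeq2 on recovered reads gave PPAN an adjusted p of 0.0609, and it was 0.0871 by limma without the second siC library. Ddx18, an RNA helicase, was not called in 4T1 at −0.12.

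The 6 multifunctional nucleolar genes were lower in all 3 lines, with medians of −1.08 in MDA-MB-436, −1.42 in SUM159PT and −0.36 in 4T1. NPM3, a relative of the histone chaperone nucleophosmin, had the largest decrease of the 42 genes in both human lines. It had 73.2, 76.9, 79.7 and 68.8 normalized counts in MDA-MB-436 siMYC libraries, against 365 and 418 in siC, which is 5.19-fold lower (−2.38 ± 0.11, limma adjusted p 2.21e-17). In SUM159PT it had 46.0, 43.7, 37.9 and 29.6 counts with siMYC, against 367 and 387 with siC, which is 9.51-fold lower (−3.25 ± 0.14, adjusted p 1.12e-25). In 4T1 the same gene differed little, with 299, 314, 312, 276, 329.5 and 321 counts in siMYC libraries, against 398, 366 and 356 in siC (−0.28 ± 0.07, adjusted p 0.00154). Every siMYC library lay below every control in each line. DDX21, an RNA helicase of RNA polymerase I and snoRNA function, had 1280.3, 1172, 1338 and 1376 counts in MDA-MB-436 siMYC libraries, against 3168 and 3255 in siC (−1.32 ± 0.04, adjusted p 3.11e-22). In SUM159PT it had 289, 271, 276 and 296 counts with siMYC, against 1240.3 and 1333 with siC (−2.18 ± 0.07, adjusted p 5.62e-32). LYAR, a zinc finger nucleolar protein, had 204, 172, 220.0 and 199 counts in MDA-MB-436 siMYC libraries, against 573 and 630.1 in siC (−1.6 ± 0.08, adjusted p 1.78e-16), and 66.9, 72.9, 74.8 and 73.9 counts in SUM159PT siMYC libraries, against 249.99 and 236 in siC (−1.74 ± 0.12, adjusted p 9.58e-18). Neither DDX21 nor LYAR had overlapping groups. Nucleolin in 4T1 (Ncl) had 6489.7, 6357, 5807, 6089, 6186 and 6317 counts with siMYC, against 7921, 8104 and 7431 with siC (−0.33 ± 0.04, adjusted p 2.82e-07).

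**Figure D3:**
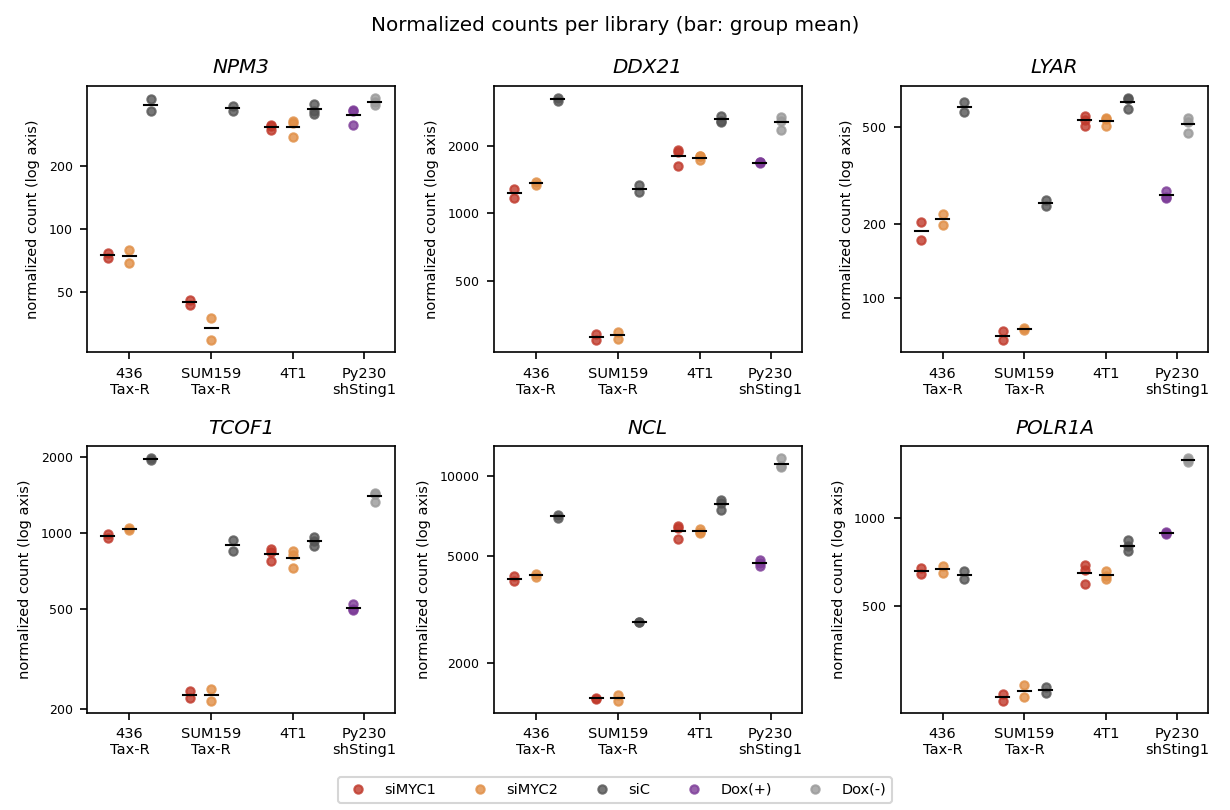
Normalized counts per library (log axis) of NPM3, DDX21, LYAR, TCOF1, NCL and POLR1A in the 3 MYC siRNA experiments and in Py230 cells, with a bar at each group mean. NPM3 lies at 29.6 to 79.7 in the human siMYC libraries, against 365 to 418 in their siC libraries, whereas POLR1A overlaps between siMYC and siC in both human lines.

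The libraries of siMYC2 were also set against those of siMYC1. None of the genes was called in MDA-MB-436, SUM159PT or 4T1 by limma, edgeR or DESeq2, where 0.195%, 0% and 0% of all genes were called by limma. At an unadjusted p below 0.05, 5, 5 and 1 of the genes passed, beside 10.2%, 3.8% and 2.64% of all genes, and the largest log2 difference of any of them was 0.33, 0.41 and 0.18 in size. As a share of all recovered reads, the 42 genes took 0.394% with siMYC1 and 0.404% with siMYC2, against 0.719% with siC, in MDA-MB-436. The shares in SUM159PT were 0.194%, 0.192% and 0.407%, in the same order, and in 4T1 0.460%, 0.465% and 0.633%. Each is the mean of a group.

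**Figure D4:**
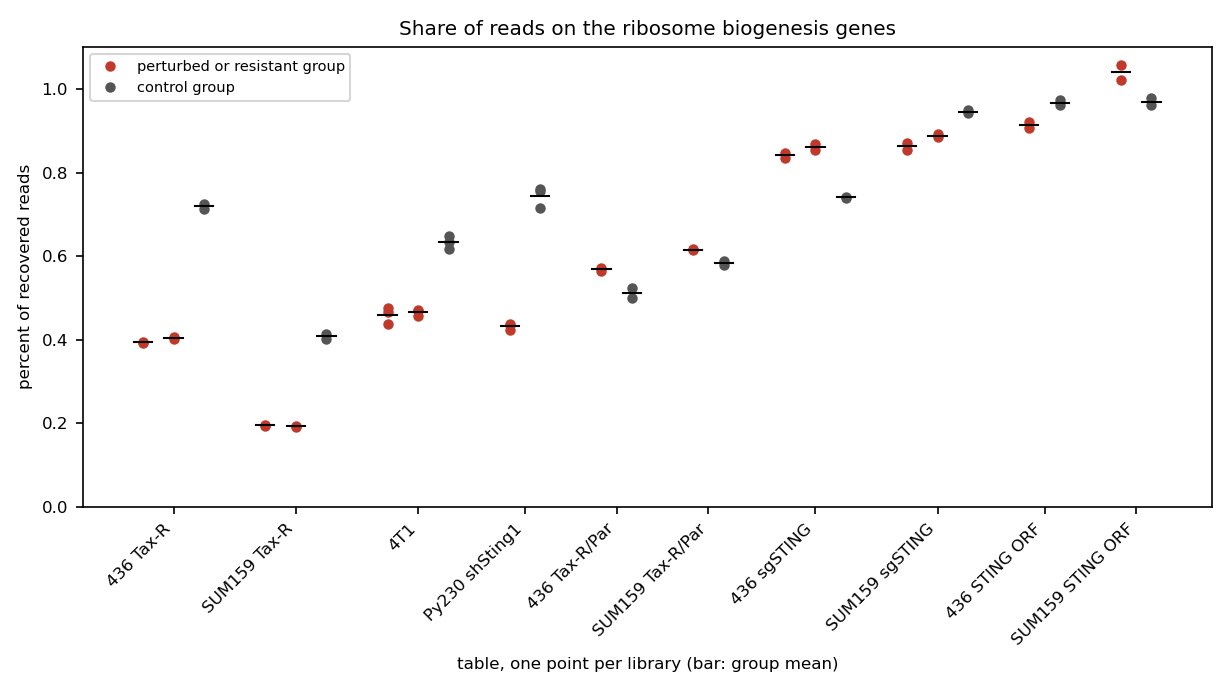
Percent of recovered reads on the ribosome biogenesis genes, with 1 point per library and a bar at each group mean, perturbed or resistant groups in red and control groups in grey. The siMYC means lie at 0.394% and 0.404% in MDA-MB-436 and 0.194% and 0.192% in SUM159PT, below siC at 0.719% and 0.407%, and Dox(+) Py230 libraries at 0.431% lie below Dox(−) at 0.744%.

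The size of the decrease differed between the 2 human lines. By an interaction of siRNA and line (limma on both tables), 23 of the 42 genes had a change that differed between MDA-MB-436 and SUM159PT, where 35.2% of all genes did (21.7% positive and 13.6% negative). The log2 change in MDA-MB-436 minus that in SUM159PT was positive for 18 and negative for 5. TCOF1 differed by 1 ± 0.08 (adjusted p 7.26e-13), DDX21 by 0.86 ± 0.07 (adjusted p 2.21e-12) and NPM3 by 0.87 ± 0.18 (adjusted p 0.000147). In the other direction PPAN differed by −1.03 ± 0.2 (adjusted p 0.000108), and BOP1, RCL1, UTP15 and RRP12 by −0.48, −0.47, −0.47 and −0.46. The tables were normalized separately, so only changes within a table were set against each other.

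**Figure D5:**
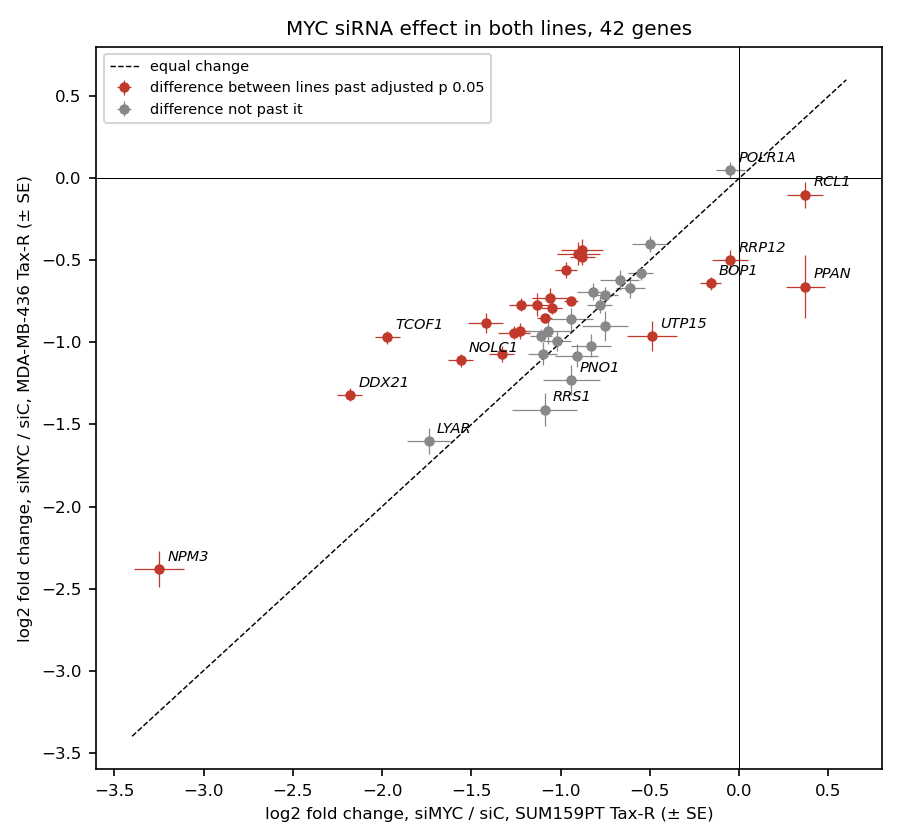
The log2 fold change of each gene in siMYC against siC, for resistant MDA-MB-436 cells (vertical axis) and resistant SUM159PT cells (horizontal axis), with SE bars, the line of equal change and red points where the difference between lines passed. NPM3 lies lowest in both lines at −2.38 and −3.25, and PPAN and RCL1 lie right of 0 at 0.37 in SUM159PT.

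Genes of the same pathway outside the set moved the same way. Of 99 other ribosome biogenesis genes, 85 of 98 tested were lower and 2 higher in MDA-MB-436 siMYC libraries (median −0.57), 87 of 98 lower and 2 higher in SUM159PT (−0.68), and 66 of 99 lower and 4 higher in 4T1 (−0.26). SENP3, a SUMO protease of the nucleolus, had −1.53 in MDA-MB-436 and −1.52 in SUM159PT, and PAK1IP1 had −1.42 and −1.76. Nle1, a large subunit factor, had −0.83 and the 18S acetyltransferase Nat10 −0.65 in 4T1. Of 73 cytosolic ribosomal protein genes, the products these factors assemble, 72 were lower in MDA-MB-436 (median −0.44), 71 in SUM159PT (−0.37) and 63 in 4T1 with 1 higher (−0.23). DNA replication genes, a list of 20 that marks cycling cells, were lower for 19 in MDA-MB-436 (−0.61) and 20 in SUM159PT (−2), but in 4T1 13 were higher and 2 lower (0.26). Of the MAX network, MNT, a repressor that competes for MAX, was 0.41 in MDA-MB-436 and 0.71 in SUM159PT, and MXI1 was −0.53 and −0.67. MXD4 went opposite ways, at 1.11 in MDA-MB-436, −0.64 in SUM159PT and −0.54 in 4T1.

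Markers of other cell types moved with the MYC siRNA as well. Of 5 fibroblast markers, COL1A1, PDGFRA and FAP were higher in MDA-MB-436, with DCN and LUM below the filter, and the summed level was 6638 to 7527 in siMYC libraries, against 540 to 546 in siC. In SUM159PT COL1A1, DCN, PDGFRA and FAP were higher, with LUM below the filter, and the sum was 25404 to 27292 in siMYC libraries, against 3612 to 4140 in siC. In 4T1, 1 of 5 was higher (Pdgfra) with Dcn, Lum and Fap below the filter, while the mesenchymal sum was 35217 to 39521 with siMYC, against 17404 to 17870 with siC. Leukocyte markers were near 0 in both human tables, with no listed reads of CD3E and a sum of 2.85 to 15.4 in siMYC libraries, against 1.07 to 10.3 in siC. Among epithelial markers, CDH1 had no listed reads in either human table. KRT8 (0.45) was higher and ELF3 (−0.5) lower in MDA-MB-436, and KRT8 (0.38) and KRT18 (0.23) were higher in SUM159PT. In 4T1, 4 of 6 epithelial markers were higher and 1 lower. Mesenchymal markers were higher for 4 of 5 in MDA-MB-436 (FN1 1.98), 2 in SUM159PT (FN1 1.48) and 2 in 4T1, with none lower. Of endothelial markers, PECAM1 (1.25) and VWF (0.98) were higher in MDA-MB-436, and PECAM1 (1.38) in SUM159PT. The part of these markers in the decrease of the ribosome biogenesis genes was not tested.

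In Py230 cells the question was what induction of the Sting1 shRNA does, and 40 of 41 genes were lower in Dox(+) than in Dox(−) libraries by limma, with none higher and a median log2 fold change of −0.66. Of all genes 67.8% were called, 32.8% higher and 35.1% lower, and 8 of the 41 genes were at least 2-fold lower, against 7.84% of all genes. The medians by role were −0.7 for RNA polymerase I, −0.72 for snoRNPs, −0.75 for the small subunit, −0.58 for the large subunit and −0.99 for the multifunctional genes. Myc itself was 1020, 964 and 998 normalized counts in Dox(+) cells, against 2770, 3281 and 3274 in Dox(−) cells (−1.64 ± 0.05, adjusted p 1.41e-18). Mycn was at −1.13, Mxi1 at 0.71 and Mga at −0.55.

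Rcl1 had the largest decrease there, with 181, 164 and 157 normalized counts in Dox(+) cells, against 512, 601 and 585 in Dox(−) cells (−1.75 ± 0.08, limma adjusted p 9.02e-16). Tcof1 had 500.1, 493 and 520.4 counts with Dox(+), against 1331, 1442 and 1431 with Dox(−) (−1.47 ± 0.05, adjusted p 6.51e-18). Tsr1, a late small subunit factor, had 649.8, 630.1 and 695 counts with Dox(+), against 1563, 1896 and 1767 with Dox(−) (−1.4 ± 0.06, adjusted p 2.38e-16). For these genes every Dox(+) library was far below every Dox(−) library. Rrp12 had 455, 453 and 528 counts with Dox(+), against 1059, 1264 and 1198 with Dox(−) (−1.29 ± 0.07, adjusted p 1.08e-14). Ncl had 4719, 4846 and 4589.9 counts with Dox(+), against 10818, 10849.9 and 11629 with Dox(−) (−1.23 ± 0.04, adjusted p 7.42e-19). Gnl3 (nucleostemin), a nucleolar GTPase of proliferating cells, had 894, 856 and 912 counts with Dox(+), against 1951, 2043 and 2142 with Dox(−) (−1.2 ± 0.05, adjusted p 6.85e-17). None of these groups overlapped. Polr1a, not called in the human siMYC tables, had 880.0, 891 and 897 counts with Dox(+), against 1553, 1589.5 and 1604 with Dox(−) (−0.83 ± 0.05, adjusted p 4.11e-14). Npm3 was only slightly lower, at 366, 315 and 373 counts with Dox(+), against 392.4, 423 and 404 with Dox(−) (−0.21 ± 0.07, adjusted p 0.0123). Bop1 was not called, at 862, 847 and 908 counts with Dox(+) and 967, 915 and 936 with Dox(−) (−0.11 ± 0.05, adjusted p 0.0665).

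Of the 99 other ribosome biogenesis genes in Py230, 81 were lower and 3 higher (median −0.48), led by Sdad1 at −1.35 and Aatf at −1.3. Ribosomal protein genes did not follow, with 11 higher and 13 lower of 73 and a median of 0.03. Of 20 replication genes, 11 were lower and 5 higher (−0.28). The mesenchymal markers Vim (1.79) and Fn1 (0.54) were higher and Snai2 (−0.31) lower, with a summed level of 57765 to 67291 in Dox(+) cells, against 42430 to 44018 in Dox(−) cells. Of 6 epithelial markers, 5 were lower and 1 higher. The part of these markers in the result was not tested.

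Taxane-resistant cells were then compared with parental cells. In MDA-MB-436, 26 of the 42 genes were higher in Tax-R and 2 lower, with a median log2 fold change of 0.17, where 54.6% of all genes were called, 27.7% higher and 26.9% lower. With the Tax-R pair counted as 1 sample, the median was 0.17, and NOB1 (−0.16) and DDX10 (−0.15) no longer passed. In SUM159PT, 18 were higher and 3 lower with a median of 0.09, where 45.7% of all genes were called, 23.5% higher and 22.1% lower. In both lines 13 genes were higher, and NOB1 was lower in both, against 11 and none with the pair as 1 sample. By DESeq2 on recovered reads 12 genes passed in MDA-MB-436 and 10 in SUM159PT, and 13 passed in SUM159PT by limma without its first Tax-R library. Over all genes DESeq2 called 5913 of 19085 in MDA-MB-436 and 4447 of 18370 in SUM159PT. The share of all genes higher in both lines is not given here. In the main limma fits, TAF1D passed in both lines with opposite signs. No change of the 42 reached 2-fold. MYC did not pass, at −0.07 in MDA-MB-436 (adjusted p 0.174) and 0.11 in SUM159PT (adjusted p 0.149).

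NPM1, the nucleolar chaperone nucleophosmin, had the largest change in MDA-MB-436, with 7689.8 and 7763 normalized counts in Tax-R, against 5176 and 5299 in Par (0.56 ± 0.04, limma adjusted p 2.02e-07). TSR1 had 1456 and 1403 counts in Tax-R, against 1121 and 1169 in Par (0.32 ± 0.04, adjusted p 3.9e-05). POLR1A had 2889 and 2909.7 counts in Tax-R, against 2349.9 and 2379.7 in Par (0.29 ± 0.03, adjusted p 1.97e-05). The Tax-R libraries lay above both Par libraries for all 3 genes. RRS1 had 454 and 455 counts in Tax-R, against 350.3 and 395 in Par (0.29 ± 0.06, adjusted p 0.00252). RCL1 had 699 and 681 counts in Tax-R, against 563 and 575 in Par (0.28 ± 0.04, adjusted p 0.000274). DKC1 had 1725 and 1713 counts in Tax-R, against 1420.0 and 1472 in Par (0.25 ± 0.04, adjusted p 0.000131). Of these 3, RRS1 had the widest spread between its Par libraries relative to its level. With the Tax-R pair as 1 sample all 6 of these genes kept their call (adjusted p 2.09e-06 for NPM1 to 0.00723 for RRS1), but RRS1 did not pass by DESeq2 (0.0887). Both exceptions were small, with NOB1 at 558 and 558 counts in Tax-R, against 603 and 643 in Par (−0.16 ± 0.05, adjusted p 0.0162). DDX10, a helicase of the small subunit processome, had 1135 and 1103 counts in Tax-R, against 1202 and 1281 in Par (−0.15 ± 0.04, adjusted p 0.0106). Both lost their call without the second Par library (adjusted p 0.088 and 0.0828) or without the second Tax-R library (0.0636 and 0.0898), and NOB1 also without the first Tax-R library (0.0633). DESeq2 gave 0.24 and 0.124.

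In SUM159PT, BOP1 had 1261 and 1329.7 normalized counts in Tax-R, against 861 and 946 in Par (0.52 ± 0.05, limma adjusted p 4.1e-05). RRS1 had 458 and 475 counts in Tax-R, against 332 and 317 in Par (0.52 ± 0.06, adjusted p 9.38e-05). RCL1 had 776 and 755 counts in Tax-R, against 541 and 536 in Par (0.51 ± 0.05, adjusted p 1.97e-05). The groups of all 3 were separate, as the choice of genes required. RRP12 followed with 1486 and 1587 counts in Tax-R, against 1161 and 1159 in Par (0.4 ± 0.04, adjusted p 5.42e-05). RRP9 had 773 and 741 counts in Tax-R, against 599.7 and 614 in Par (0.32 ± 0.05, adjusted p 0.000491). UTP20, a large processome scaffold, had 3114 and 3117 counts in Tax-R, against 2576 and 2461 in Par (0.31 ± 0.04, adjusted p 0.000138). None of these groups overlapped. NOB1 was lower, with 597 and 589 counts in Tax-R, against 734 and 751 in Par (−0.32 ± 0.05, adjusted p 0.000353). The large subunit factor NIP7 had 999 and 953 counts in Tax-R, against 1073 and 1109.8 in Par (−0.16 ± 0.04, adjusted p 0.014). TAF1D had 2285 and 2227 counts in Tax-R, against 2435 and 2452 in Par (−0.12 ± 0.04, adjusted p 0.0255). All 3 lower genes had separate groups. NIP7 lost its call without the second Par (adjusted p 0.0877) or the second Tax-R library (0.132), and TAF1D without any 1 of the 4 libraries (0.0591 to 0.234). By DESeq2 on recovered reads neither passed (0.188 and 0.202).

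Ribosomal protein genes were higher for 38 and lower for 8 of 73 in MDA-MB-436 Tax-R (median 0.11), against 29 and 3 with the pair as 1 sample, and higher for 22 and lower for 4 in SUM159PT Tax-R (0.04). Of 20 replication genes, 18 were higher in Tax-R and none lower in both lines, with medians of 0.34 and 0.18, and 17 were higher in MDA-MB-436 with the pair as 1 sample. Leukocyte markers were lower in Tax-R in both lines. PTPRC, CD14 and ITGAM were lower in MDA-MB-436, with a sum of 254 to 382 in Tax-R, against 2051 to 2163 in Par. In SUM159PT PTPRC and CD14 were lower, with no listed reads of CD3E and a sum of 8.91 to 14.3 in Tax-R, against 557 to 592 in Par. Of the epithelial markers, 3 were lower and 1 higher in MDA-MB-436 (ELF3 −2.21, EPCAM 0.84), with a sum of 2081 to 2211 in Tax-R, against 3353 to 3428 in Par. In SUM159PT 4 were lower (ELF3 −3.85, CLDN7 −2.74), with no listed reads of CDH1 and a sum of 2014 to 2068 in Tax-R, against 3163 to 3196 in Par. Endothelial markers were lower for 2 in each line, with sums of 166 to 203 in Tax-R, against 280.4 to 296 in Par, in MDA-MB-436, and of 103 to 126 in Tax-R, against 361 to 371 in Par, in SUM159PT. Mesenchymal markers were higher for 3 and 4 of 5, with sums of 9421 to 9739 in Tax-R, against 8667 to 8792 in Par, in MDA-MB-436, and of 11144 to 11366 in Tax-R, against 10240.4 to 10416 in Par, in SUM159PT. Of 5 fibroblast markers, 3 were lower in MDA-MB-436 (FAP −3.34), with a sum of 3717 to 3881 in Tax-R, against 4634 to 4744 in Par. In SUM159PT 2 were lower (PDGFRA −2.04, DCN −1.98) and COL1A1 was higher (0.72), with a sum of 3219.9 to 3261 in Tax-R, against 2481 to 2509 in Par. The part of these markers in the result was not tested. Between the lines, 18 of the 42 genes differed in their Tax-R change by an interaction term, 12 of them positive and 6 negative, where 36.8% of all genes did (18.6% and 18.2%), led by BOP1 (MDA-MB-436 minus SUM159PT, −0.51 ± 0.07), RRP12 (−0.42 ± 0.05) and POLR1A (0.31 ± 0.05, limma adjusted p 0.000149). With the MDA-MB-436 Tax-R pair as 1 sample, fewer of the 42 genes differed, and these 3 were at −0.51, −0.42 and 0.31.

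With STING sgRNA, the 42 genes went different ways in the 2 lines. In MDA-MB-436, 23 were higher in the sgRNA libraries than in mock and 2 lower (median 0.16), where 47.8% of all genes were called, 24.8% higher and 23% lower. In SUM159PT, 2 were higher and 26 lower (median −0.18), where 39.1% of all genes were called, 19.3% higher and 19.8% lower. The difference itself was tested with an interaction term, and it passed for 33 of the 42 genes, all with the more positive change in MDA-MB-436, where 29.8% of all genes passed, 15.7% in that direction and 14.1% in the other. The difference had a median of 0.34 over the 42 genes and 0.01 over all genes. It was 0.79 ± 0.07 for RRP12 (limma adjusted p 1.96e-10), 0.7 ± 0.1 for NPM3 (adjusted p 4.59e-07) and 0.69 ± 0.11 for WDR74 (adjusted p 4.8e-06). MYC was 0.10 in MDA-MB-436 (adjusted p 0.0365) and 0.08 in SUM159PT (adjusted p 0.104).

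In MDA-MB-436, all 6 multifunctional genes and 9 of 13 small subunit genes were higher with STING sgRNA. DDX21 had 5329, 5048, 5337 and 5435 normalized counts in the sgRNA libraries, against 3512 and 3554 in mock (0.58 ± 0.03, limma adjusted p 1.98e-15). DDX10 had 543, 612, 586 and 667 counts with sgRNA, against 427 and 419 in mock (0.5 ± 0.06, adjusted p 2e-07). UTP15, an early processome protein, had 573, 567, 626 and 569 counts with sgRNA, against 424 and 399 in mock (0.5 ± 0.06, adjusted p 8.21e-08). All sgRNA libraries, C1 and C2 alike, lay above the mock libraries. RRP12 had 886, 844, 856 and 909.7 counts with sgRNA, against 629 and 642 in mock (0.46 ± 0.05, adjusted p 2.24e-08). WDR43 (UTP5), another early processome protein, had 1104, 1154, 1168 and 1221 counts with sgRNA, against 871 and 829 in mock (0.45 ± 0.05, adjusted p 5.44e-09). RCL1 had 283, 244, 263 and 259.9 counts with sgRNA, against 223 and 184 in mock (0.37 ± 0.09, adjusted p 0.00106), and its adjusted p was 0.107 without the second mock library. The 2 lower genes were BOP1, with 920.1, 997, 850.0 and 823 counts with sgRNA, against 1083 and 1039 in mock (−0.25 ± 0.05, adjusted p 0.000159), and FBL, the 2'-O-methyltransferase of box C/D snoRNPs, with 872, 962, 936 and 894 counts with sgRNA, against 1025 and 1017 in mock (−0.16 ± 0.05, adjusted p 0.0107). Neither had overlapping groups. FBL lost its call without the first or the second mock library (adjusted p 0.101 and 0.0749).

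In SUM159PT, 10 of 12 large subunit genes, 5 of 7 snoRNP genes and 6 of 13 small subunit genes were lower with STING sgRNA. PPAN had 62.6, 59.8, 56.6 and 48.4 normalized counts in the sgRNA libraries, against 93.5 and 98.9 in mock (−0.75 ± 0.15, limma adjusted p 8.69e-05). WDR74, a large subunit factor, had 413, 335, 283 and 308 counts with sgRNA, against 565 and 512 in mock (−0.7 ± 0.07, adjusted p 2.85e-10). RRP9 had 427, 433, 358 and 339.8 counts with sgRNA, against 595 and 528 in mock (−0.53 ± 0.07, adjusted p 1.05e-08). In all 3 the sgRNA libraries lay below the mock libraries. BOP1 had 1181, 1063, 916 and 874 counts with sgRNA, against 1428 and 1333 in mock (−0.46 ± 0.05, adjusted p 2.68e-10). FBL had 1278, 1406, 1125 and 1085 counts with sgRNA, against 1669 and 1684 in mock (−0.46 ± 0.05, adjusted p 3.04e-11). NPM3 had 342, 335, 311 and 309.9 counts with sgRNA, against 456 and 438 in mock (−0.46 ± 0.07, adjusted p 5.78e-07). In BOP1 and FBL the C1 libraries lay between the C2 and mock libraries. The 2 higher genes had overlapping groups, with TAF1D at 1365, 1347, 1571 and 1709 counts with sgRNA, against 1374 and 1326 in mock (0.14 ± 0.04, adjusted p 0.00837), and UTP20 at 899.6, 992, 1076 and 1080.2 counts with sgRNA, against 887 and 942 in mock (0.14 ± 0.05, adjusted p 0.0204). With C1 alone they were at 0.01 and 0.05 and did not pass (adjusted p 0.948 and 0.612), and each also lost its call without the second C2 library (0.0775 and 0.0539), TAF1D without the second mock library (0.0767) and UTP20 without the first mock or the second C1 library (0.224 and 0.133).

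Between C2 and C1 none of the 42 genes was called in MDA-MB-436 by limma, edgeR or DESeq2, where 0.797% of all genes were called by limma, and 5 passed at an unadjusted p below 0.05, beside 14.1% of all genes. In SUM159PT 15 genes differed between them, 7 higher and 8 lower in C2, where 19.9% of all genes were called, 8.53% higher and 11.4% lower. RRS1 had 278 and 285 normalized counts in C2, against 350.2 and 370.0 in C1 (−0.35 ± 0.08, adjusted p 0.00228). POLR1C had 258 and 246 counts in C2, against 313 and 323 in C1, and WDR74 had 283 and 308 in C2, against 413 and 335 in C1 (both −0.33 ± 0.09, adjusted p 0.00417 and 0.0044). None of these groups overlapped. POLR1C and WDR74 lost their call when single libraries were left out, with adjusted p up to 0.0677 for POLR1C (without the second C2 library) and 0.265 for WDR74 (without the first C1 library). DESeq2 on recovered reads called 5 of the 42 genes, 3 higher and 2 lower, and none of these 3 (0.0525 for RRS1). Over all genes it called 969 of 15168. Without the filter on low values limma called 0 of all genes, against 3025 with it, and so none of the 42 (0.0989 for RRS1). When 1 library was left out, the median of the 42 genes was −0.05 to 0.

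Ribosomal protein genes were mostly lower with STING sgRNA in both lines, 47 of 73 in MDA-MB-436 with 7 higher (median −0.15) and 59 in SUM159PT with 1 higher (−0.15). In MDA-MB-436 this was opposite in sign to the median of the 42 genes. Of the other ribosome biogenesis genes, 53 were higher and 13 lower in MDA-MB-436 (0.16), led by the small subunit factor MPHOSPH10 at 0.65 and the 5S particle factor RPF2 at 0.64. In SUM159PT 3 were higher and 41 lower (−0.11), with WDR18 at −0.58 and PWP2 at −0.54. Fibroblast markers moved too, with COL1A1 lower and PDGFRA and FAP higher in MDA-MB-436, no listed reads of DCN and LUM, and a sum of 3488 to 4076 in sgRNA libraries, against 4788 to 4834 in mock. In SUM159PT COL1A1 and PDGFRA were lower and FAP higher, LUM had no listed reads, and the sum was 319 to 363 in sgRNA libraries, against 1176 to 1246 in mock. Of epithelial markers, 3 were lower and none higher in MDA-MB-436 (ELF3 −1.57), and 1 was higher in SUM159PT. Mesenchymal markers were higher for 4 of 5 in MDA-MB-436, and higher for 2 and lower for 1 in SUM159PT. PECAM1 (0.52) and PTPRC (0.3) were higher in MDA-MB-436. In SUM159PT PECAM1 (−0.9) and PTPRC (−5.12) were lower and KDR (2.44) was higher. The part of all these markers in the result was not tested.

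A STING ORF was compared with a GFP ORF in STING-sgRNA cells. STING1 was higher with the ORF by 4.47 on the log2 scale in MDA-MB-436 and by 4.37 in SUM159PT. In MDA-MB-436, 14 of the 42 genes were lower with the STING ORF and none higher (median −0.15), where 21.1% of all genes were called, 9.2% higher and 11.9% lower. In SUM159PT, 19 were higher and 1 lower (median 0.18), where 26% of all genes were called, 13.2% higher and 12.8% lower. By an interaction term 20 of the 42 genes differed between the lines, all with the more negative change in MDA-MB-436, where 10.2% of all genes differed, 6.6% in that direction and 3.61% in the other. The median difference was −0.34 over the 42 genes and −0.03 over all genes. These counts rest on 2 libraries a group and were unstable, since in SUM159PT 1 gene passed without the first GFP library and 3 without the second. In MDA-MB-436, 9 passed without the first STING library and 6 without the second. MYC did not pass in either line (−0.14, adjusted p 0.181, and −0.07, adjusted p 0.457).

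In MDA-MB-436, PES1, of the complex with BOP1 and WDR12, had 868 and 833 normalized counts with the STING ORF, against 1367 and 1218 with GFP (−0.6 ± 0.08, limma adjusted p 1.12e-06). BYSL (bystin), a small subunit factor, had 311 and 335 counts with STING, against 446 and 444 with GFP (−0.46 ± 0.1, adjusted p 0.000917). RRP9 had 465 and 507 counts with STING, against 644 and 649 with GFP (−0.41 ± 0.09, adjusted p 0.00106). None of these groups overlapped. BOP1 had 879 and 836 counts with STING, against 1179 and 1058 with GFP (−0.38 ± 0.08, adjusted p 0.000851). RCL1 had 204 and 214 counts with STING, against 255 and 286 with GFP (−0.37 ± 0.12, adjusted p 0.0199). RRP12 had 857 and 803 counts with STING, against 1109.7 and 1003 with GFP (−0.35 ± 0.08, adjusted p 0.00227). These groups did not overlap either. RCL1 lost its call without the second GFP, the first STING or the second STING library (adjusted p 0.127, 0.116 and 0.0714), and RRP12 without the second STING library (0.0748). In SUM159PT, PNO1 had 627 and 666 counts with STING, against 432 and 428 with GFP (0.58 ± 0.09, adjusted p 4.24e-05). POLR1B had 920.3 and 935 counts with STING, against 709.7 and 701 with GFP (0.4 ± 0.08, adjusted p 0.000976). GNL3 had 2010.3 and 2249 counts with STING, against 1578 and 1703 with GFP (0.38 ± 0.07, adjusted p 0.000434). The STING libraries lay above the GFP libraries for all 3. NIP7 had 1048 and 1126 counts with STING, against 800.4 and 873 with GFP (0.38 ± 0.08, adjusted p 0.00138). DDX10 had 515 and 562 counts with STING, against 398 and 428 with GFP (0.38 ± 0.1, adjusted p 0.00532). HEATR1 had 1364 and 1537 counts with STING, against 1118 and 1169 with GFP (0.34 ± 0.08, adjusted p 0.00214). None of these groups overlapped. RRP12 was the 1 lower gene, at 707 and 629 counts with STING, against 821 and 809 with GFP (−0.29 ± 0.09, adjusted p 0.0171). Of these 7 genes, PNO1 alone kept its call without the first GFP library, and PNO1, GNL3 and NIP7 without the second.

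The sgRNA and ORF experiments used separate libraries, so their signs can be set against each other. In MDA-MB-436, 26 of the 42 genes (61.9%) had opposite signs in the 2 experiments, where 34.4% of all genes did. In SUM159PT 32 (76.2%) did, where 50.4% of all genes did. Genes called in both with opposite signs were NCL, TCOF1, NOP14, RCL1 and RRP12 in MDA-MB-436, which is 11.9% of the 42 against 2.51% of all genes, while BOP1 was called with the same sign. In SUM159PT they were NOLC1, FBL, NOP56, WDR12, PNO1, MRTO4, TSR1, NIP7, POLR1B and NOB1, which is 23.8% against 7.21% of all genes, while RRP12 and UTP20 are the other 2 genes called in both. Of ribosomal protein genes, 34 of 73 were lower and none higher with the ORF in MDA-MB-436 (median −0.18), and 35 were higher and none lower in SUM159PT (0.17). Of the other ribosome biogenesis genes, 6 were higher and 20 lower in MDA-MB-436 (−0.09), and 39 higher and 4 lower in SUM159PT (0.2), led by RPF2 at 0.67 and NOL10 at 0.56. With the ORF, epithelial markers were lower for 2 and higher for 1 in MDA-MB-436, and lower for 2 in SUM159PT (CLDN7 −1.71). Fibroblast markers were lower for 2 and 1. Mesenchymal markers were higher for 1 and lower for 1 in MDA-MB-436, and higher for 2 and lower for 2 in SUM159PT. PTPRC was lower in MDA-MB-436 (−0.41). What part these markers had was not tested.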

How the data were processed

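Total RNA was extracted with an automated kit and sequenced on Illumina instruments, per the labels. The deposited values are of the unit signal, which the authors made from read counts per gene by scaling each library of a table with its own factor. HISAT2, StringTie, featureCounts and DESeq2 appear in the submitters' processing notes with no version, and neither genome build nor strand setting is stated in the sources used here. Every value was a whole multiple of 1 step per library (tolerance 0.05), so whole reads were recovered for depth, read shares and alternative count tests. Values were tested as log2(value + 1) with limma 3.58.1 in R 4.3.3, two-sided, for genes averaging 10 or more over their table, each table alone with all its groups, and adjusted over all genes tested. MYC siRNAs, and C1 and C2, entered as the mean of both reagents. Fold changes are on this scale, which understates changes of low genes. Log2 errors are standard errors. Alternatives were edgeR 4.0.16 and DESeq2 1.42.0 on recovered reads, another pseudocount, quantile normalization, no filter, a 2-fold minimum, a replicate block and leaving out each library. The code was tested on simulated data.

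The genes and lists were chosen with earlier results of these data known. Full values were given to the 6 genes of the commonest direction with the largest change and no overlap, and to those of the other direction. Further genes were named after their values were seen, to show each role. The differences between lines under STING sgRNA and ORF, and the counts with the MDA-MB-436 Tax-R pair as 1 sample, were added after seeing the data.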

Additional observations from a re-analysis of the deposited data

Results flagged for a closer look

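The MYC siRNA effect differed between MDA-MB-436 and SUM159PT for 23 of the 42 genes (limma interaction term), beside 35.2% of all genes. MDA-MB-436 minus SUM159PT was −1.03 for PPAN, 1 for TCOF1 and 0.87 for NPM3. The Tax-R effect differed for 18 of the 42 genes, beside 36.8% of all genes. Fewer of the 42 differed with the MDA-MB-436 Tax-R pair counted as 1 sample. BOP1 was at −0.51, RRP12 at −0.42 and POLR1A at 0.31. The STING sgRNA effect differed for 33 genes, beside 29.8% of all genes, with RRP12 at 0.79, NPM3 at 0.7 and WDR74 at 0.69. The STING ORF effect differed for 20 genes, beside 10.2% of all genes, with PNO1 at −0.63, NOB1 at −0.61 and BYSL at −0.57. No group had the 4 or more libraries that a search for single outlying libraries needs.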

How the results depend on the processing

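Counts of ribosome biogenesis genes past the threshold kept within 1.5 times under edgeR, pseudocount 4 and quantile normalization. Main counts were 28 and 21 for Tax-R in MDA-MB-436 and SUM159PT, 40, 40 and 38 for MYC siRNA in MDA-MB-436, SUM159PT and 4T1, 25 and 28 for STING sgRNA, 14 and 20 for the STING ORF, 15 for C2 against C1 in SUM159PT and 40 in Py230. DESeq2 on recovered reads gave 12 and 10 for Tax-R, 9 and 12 for the ORF and 5 for C2 against C1. Over all genes it called 5913 and 4447 for Tax-R, 1090 and 1645 for the ORF and 969 for C2 against C1. Without a filter the ORF gave 1 and 2 and C2 against C1 gave 0. Over all genes the calls without it were 328, 884 and 0, against 3134, 3875 and 3025 with it. With a 2-fold minimum the counts were 10, 19 and 0 for MYC siRNA, 8 in Py230 and 0 in all other comparisons named here. The cause of these differences was not tested. Of 75 called changes followed through these alternatives, none turned its sign. Changes of the further genes named to show each role were not followed. For C2 against C1 in SUM159PT the split was 7 higher and 8 lower, and 3 higher and 2 lower by DESeq2. Leaving out 1 library gave 22 to 28 and 13 to 17 for Tax-R (13 without the first SUM159PT Tax-R library), 40 to 40, 39 to 40 and 34 to 39 for MYC siRNA, 19 to 27 and 22 to 27 for STING sgRNA, 6 to 9 for C2 against C1 in SUM159PT and 0 to 1 in MDA-MB-436, 6 to 17 and 1 to 25 for the ORF, and 39 to 41 in Py230. Libraries that share a number correlated at −0.0913 to 0.11 in their deviations from group means, so the numbers were not taken to pair them. With the replicate number as a block, the counts were 30 and 20, 40, 40 and 38, 25 and 28, 21 and 24, and 40. The block moved the MDA-MB-436 ORF count by 1.5 times, and TAF1D in SUM159PT Tax-R lost its call (adjusted p 0.0579). Interaction counts under the block were 23 for MYC siRNA and 17 for Tax-R. The Tax-R count was lower with the MDA-MB-436 Tax-R pair counted as 1 sample. With 2 libraries in most groups, small changes are limited by the spread between libraries as well as by depth.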
